A study of Mus musculus with 60 samples.

Results

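The array carries 55681 features that are not controls, and 16181 of them (29.1%) are named by a stretch of the mouse genome in place of a transcript. Such a name begins with chr and gives a chromosome, a start and an end on build mm9, followed by the letter F or R for the strand, whose relation to the strands of the genome the files do not state. All 16181 were taken as genomic region features from their names alone, so no measured value chose them. A feature is 1 probe identifier of the array, with its spots averaged. The names pair no feature with a gene, and whether an interval lies in an exon, an intron or between genes was not analysed here. Neither was the position of a feature within its interval.

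The 16181 features fall on 4607 stranded intervals, and 1067 of the 3540 intervals without regard to strand carry features on both strands. Intervals have a median length of 7315.5 bases, with quartiles of 787.25 and 21815.5 bases. Of the stranded intervals, 690 have 1 feature, 535 have 2, 1809 have 3, 199 have 4, 973 have 5 and 401 have 6 to 10. Features of 1 interval are not independent of each other, because they can report the same transcript. Overlapping intervals were joined into 2223 loci, which served to avoid naming the same stretch more than once.

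Much of the mammalian genome outside protein-coding genes is transcribed, and the products include long noncoding RNAs that lie between genes or run antisense to them. Such RNAs are known as a class for lower abundance and narrower tissue range than messenger RNAs. A transcribed interval without a gene name can equally be an unlisted exon, an extended end or an unspliced part of a known gene, so signal over it does not say which kind of RNA was measured.

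Lung, liver and forestomach were taken from 20 male mice of the Muta Mouse strain, which carries a reporter transgene for mutation assays, aged about 10 weeks. Mice received olive oil (D0) or benzo(ghi)perylene (BghiP), a polycyclic aromatic hydrocarbon, in olive oil by daily gavage for 28 days at 6.25 (D1), 12.5 (D2) or 25 mg/kg-bw/day (D3), in groups of 5, and tissue collection followed 72 hours after dosing ended. RNA came from randomly chosen pieces of each organ. Every mouse gave all 3 tissues, and each tissue was hybridized once, so the 60 arrays form 12 groups of 5. Tissue RNA (Cy5) was hybridized against a universal mouse reference RNA made from cell lines (Cy3), and a value is the normalized log2 ratio of Cy5 to Cy3.

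Lung and forestomach arrays shared 5 slides, 1 array of each tissue and dose per slide, and liver arrays filled 3 other slides. Each dose lay in its own column of the slides, so dose and array position cannot be told apart. Every labelled tissue carried its own markers, with 7 of 7 lung markers, 7 of 7 liver markers and 8 of 8 squamous epithelium markers well above background on 5 or more arrays of their tissue. Lung of mouse 1 (D0) stood apart, with a mean log2 ratio of 4.75 over 7 skeletal muscle markers (next highest lung array 0.45) and 4.00 over 8 squamous markers (next 0.08). Forestomach arrays also held glandular stomach markers at mean log2 ratios from 0.26 to 7.74 (median 5.18, 6 markers) and liver markers from 0.00 to 4.62 (median 2.23, 7 markers). Forestomach of mouse 2 (D0) had lung markers at a mean of 4.38 (7 markers), with the next forestomach array at 1.75. For named forestomach features, differences from lung are given with and without mouse 1, all 3 of whose arrays were left out.

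Region features were detected less often than features named by a transcript. A feature counted as detected in a tissue when Feature Extraction flagged its Cy5 signal as well above background on 5 or more of the 20 arrays. By this measure 5990 region features (37.0%) were detected in lung, 4433 (27.4%) in liver and 3685 (22.8%) in forestomach. Features named by curated messenger RNAs (NM accessions) reached 71.9%, 62.7% and 64.1%. Curated noncoding RNAs (NR) reached 47.0%, 40.6% and 37.0%, and model RNAs (XM or XR) 45.8%, 40.0% and 37.1%. The region features were thus the lowest class in every tissue, below Ensembl transcripts and below the features with other names as well. In the reference RNA, 43.7% of region features and 72.9% of NM features were well above background on 15 or more of the 60 arrays.

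**Figure D1:**
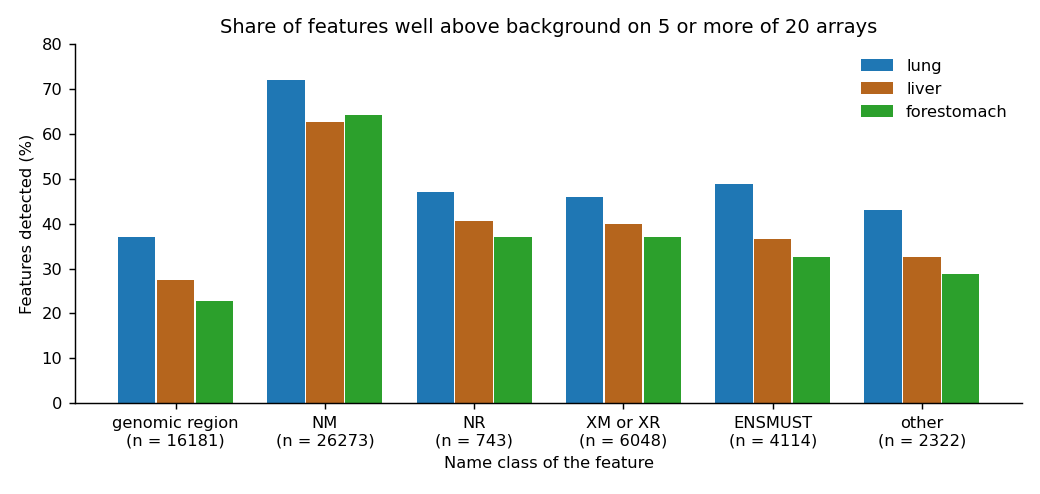
Share of features (%) well above background in Cy5 on 5 or more of 20 arrays, for each class of feature name, with 1 bar per tissue and the number of features of each class in the axis label. Genomic region features had the lowest bar of every tissue, at 37.0% in lung, 27.4% in liver and 22.8% in forestomach.

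Steady detection was rarer still. In lung 2011 region features (12.4%, NM 50.4%) were well above background on all 20 arrays, in liver 2192 (13.5%, NM 50.3%) and in forestomach 641 (3.96%, NM 31.0%). On all 60 arrays 590 were above background, and 5195 were above background on none. For 2858 region features no array showed signal in either channel. Another 442 were never above background in the reference RNA but were so in tissue on 1 or more arrays, and 10 of these were above background on all 20 liver arrays, 2 on all 20 lung arrays and 1 on all 20 forestomach arrays.

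The share of region features above background differed widely between arrays of 1 tissue. Over the 20 arrays it was 29.0% ± 8.16 (mean ± SD) in lung, with a range from 14.1% to 41.3%. It was 23.8% ± 3.88 in liver (16.6% to 30.4%) and 16.7% ± 8.29 in forestomach (5.23% to 33.3%). Slides differed more than doses: slide 2 had the lowest mean in lung (18.1%) and in forestomach (6.89%), and slide 5 the highest in both (40.4% and 30.0%). NM features moved with the slides too, from 52.1% to 74.3% over lung arrays and from 34.0% to 71.2% over forestomach arrays.

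The lung and the forestomach of a mouse shared a slide, and the lung array had the higher share in 20 of 20 mice, by 12.3 percentage points on average (exact two-sided sign-flip test over mice, p = 5.72e-06 after Benjamini-Hochberg adjustment over 3 comparisons, the smallest this test can give). Lung exceeded liver by 5.20 points (15 of 20 mice, exact adjusted p = 0.0322) and liver exceeded forestomach by 7.15 points (15 of 20 mice, exact adjusted p = 0.0114), but liver arrays lay on other slides, so tissue and slide cannot be told apart in those comparisons. In bulk tissue, fewer cells that make an RNA and less of it per cell also cannot be told apart. None of the 9 comparisons of a dose with D0 passed (exact two-sided permutation tests over 5 against 5 mice, adjusted p = 0.889 in each), with differences from 0.405 to 3.90 points. With lung and forestomach arrays paired by slide, a test added after seeing the data, the smallest p that 5 slides allow is 0.0625. It was reached by forestomach at D2, higher than D0 on 5 of 5 slides by 1.63 to 4.89 points (mean 3.29, exact two-sided sign-flip test, adjusted p = 0.25 over 6 comparisons). NM features were also higher there on 5 of 5 slides, by 6.09 points on average. The other 5 differences were positive on 4 of 5 slides each, with exact adjusted p from 0.25 to 0.563.

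**Figure D2:**
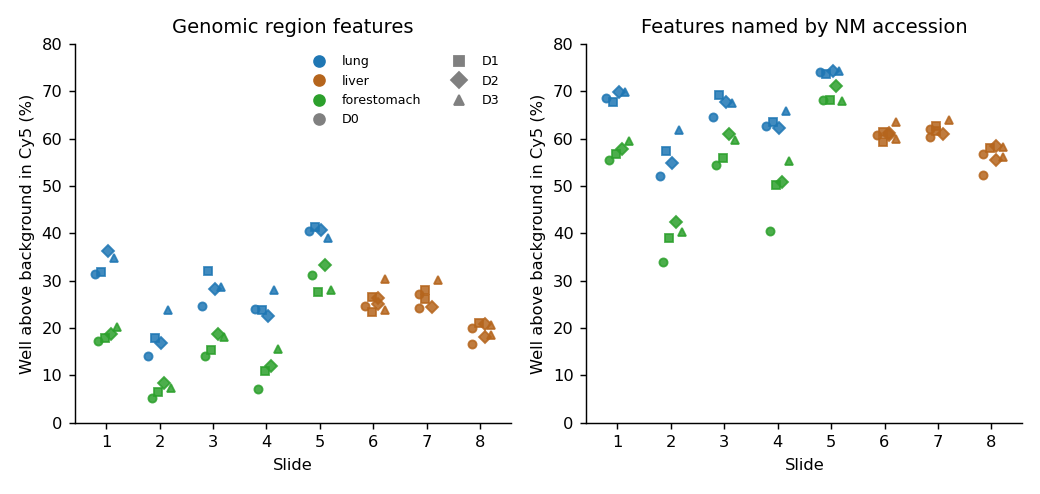
Share of features (%) well above background in Cy5 on each of the 60 arrays, by slide, for genomic region features (left) and features named by NM accession (right). Colour marks the tissue and shape the dose group. Forestomach arrays lie below the lung arrays of the same slide, and both tissues are lowest on slide 2 and highest on slide 5.

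Detection varied with strand letter, interval length and chromosome. Features on letter R were detected more often than those on letter F, at 40.0% against 34.1% in lung, 28.4% against 26.5% in liver and 24.1% against 21.5% in forestomach. Lung detection was highest for intervals of 1001 to 5000 bases (43.9%) and lowest for those of 500 bases or fewer (31.4%). Between chromosomes it ran from 28.1% on chromosome 9 to 45.7% on chromosome 19. Features of 1 interval share their source, so these shares are given with no test.

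Most region features that were detected at all were found in more than 1 tissue. Of the 16181, 9668 (59.7%) passed in no tissue, against 23.3% of NM features. All 3 tissues detected 3180 (19.7%, NM 56.2%), and lung together with liver detected 842. Lung alone detected 1596 (9.86%), liver alone 390 (2.41%) and forestomach alone 112 (0.692%). Among NM features the same shares were 6.66%, 2.07% and 2.04%. These are shares of every feature in a class, detected or not. Among detected features alone, a larger part of the region features than of the NM features was found in a single tissue. A stricter reading, above background on all 20 arrays of a tissue and on none of the other 40, left 17 region features for lung (0.105%, NM 0.320%), 24 for liver (0.148%, NM 0.274%) and 0 for forestomach (5 NM features).

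Tissue differences were tested over 33255 features, namely those detected in 1 or more tissues, of which 6513 were region features. The test was a limma model of the 12 groups, and a feature was called at a Benjamini-Hochberg adjusted p of 0.05 or less with a difference of 1.5-fold or more. Lung and liver differed for 1850 region features (28.4%), of which 936 were higher in lung and 914 in liver, and over all features tested the share called was 45.6%. Lung and forestomach differed for 1222 (18.8%, all features 34.6%), of which 762 were higher in lung. Liver and forestomach differed for 1295 (19.9%, all features 39.0%), of which 739 were higher in liver. A feature could pass the filter through the tissue where it was high alone, so these counts describe the features that passed and not all 16181. Without mouse 1 the counts were 1846, 1226 and 1283, and without mouse 2 they were 1863, 1224 and 1328.

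Region features had smaller differences than features at large on this scale. The median absolute log2 difference between lung and liver was 0.32 for region features and 0.51 for all features tested. For lung and forestomach it was 0.22 against 0.37, and for liver and forestomach 0.22 against 0.41. Features that were above background on all 40 arrays of a comparison came closer to the rest, with 727 of 1526 region features called between lung and liver (47.6%, all such features 56.8%), 270 of 621 between lung and forestomach (43.5%, all such features 47.2%) and 262 of 599 between liver and forestomach (43.7%, all such features 55.1%). With the background-subtracted processed signals 4383, 3152 and 3776 region features were called, or 67.3%, 48.4% and 58.0%, against 67.4%, 53.6% and 61.9% of all features.

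Features of 1 interval were often not all detected. Of 3382 stranded intervals with 3 or more features, lung detected all features in 488, some in 1776 and none in 1118. Where an interval had several calls, these mostly shared a direction. Between lung and liver 1056 stranded intervals had a call, 412 had 2 or more, and all calls ran in 1 direction in 390 of the 412. The numbers were 297 of 303 for lung and forestomach and 259 of 266 for liver and forestomach. Higher than in both other tissues were 563 region features in lung (8.64%, all features tested 14.0%), 559 in liver (8.58%, all features 13.2%) and 250 in forestomach (3.84%, all features 8.58%). Lower than in both others were 145 in lung (2.23%, all features 5.80%), 280 in liver (4.30%, all features 13.4%) and 139 in forestomach (2.13%, all features 4.42%).

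The features named below for a tissue were chosen for their pattern over the tissues, so their values are a description and carry no test. Among the 17 features confined to lung arrays by the stricter reading, A_30_P01023417 on chr8:93337794-93348869 (strand R) had the largest difference. Its log2 ratio was 2.24 at the lowest, 3.04 at the median and 4.28 at the highest over the 20 lung arrays, and it was above background on 0 of the 40 other arrays. Liver values ran from -0.16 to 0.29 and forestomach values from -0.26 to 0.30, so no lung array overlapped with another tissue. Where a feature was not well above background on any array of a tissue, its fold is a lower bound, taken on normalized Cy5 signals and not on the ratios, against the dimmest signal still above background there. Lung was at least 7.32-fold brighter than liver and at least 6.93-fold brighter than forestomach. A second feature of the same interval, A_30_P01026518, ran from 2.62 to 4.81 in lung, and was above background on 0 liver arrays and 3 forestomach arrays.

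The other features named for lung by the same ranking lay elsewhere. A_30_P01030416 on chr1:90340543-90359181 (R) ran from 1.11 to 3.37 in lung (median 2.14) and at most 0.50 in the other tissues. A_30_P01018697 on chr9:81536195-81538236 (F) ran from 0.64 to 3.70 (median 1.84), and A_30_P01018252 on chr8:26212577-26218527 (R) from 0.70 to 2.92 (median 1.70). All 3 were separated from every liver and forestomach array. For A_30_P01030416 the log2 ratios gave 4.68-fold over liver and 4.33-fold over forestomach, less than the bounds of 5.50-fold and 5.29-fold on Cy5 signals, so the scales differ for this feature. Each was above background on 20 of 20 lung arrays.

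The largest lung excess of any region feature, chosen after its values were seen, was that of A_30_P01017818 on chr16:11008534-11013759 (F). Its log2 ratio in lung was between 4.38 and 5.74 (median 5.33), against 0.09 to 0.66 in liver and -0.25 to 1.40 in forestomach. Lung was 28.1-fold above liver (log2 difference 4.81 ± 0.10, SE) and 35.3-fold above forestomach (5.14 ± 0.10), where it was above background on 14 of 20 arrays. On chr16:46384974-46391331 (R), A_30_P01028912 had lung values from 3.90 to 4.72, liver values from 1.21 to 2.25 and forestomach values from -0.37 to 0.92, without overlap, but in forestomach it was above background on 8 of 20 arrays.

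Some loci held many features that were higher in lung. On chr1:139713316-139913366, 14 of 22 features on F and 0 of 15 on R were higher in lung than in both other tissues, by 0.60 to 1.77 on the log2 scale against the nearer tissue. On chr17:26911032-26917047, 12 of 13 features on F and 0 of 10 on R were so, by 0.83 to 1.62. At both loci the lung excess therefore lay on a single strand letter.

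Liver had the 24 features of the stricter reading, led by A_30_P01027939 on chr1:71939741-71947891 (F). Its log2 ratio ran from 2.50 to 4.57 in liver (median 4.17), from -0.54 to -0.02 in lung and from -0.32 to 0.10 in forestomach. Liver was at least 11.7-fold brighter than lung, and the feature was above background on 0 of 20 forestomach arrays. No liver array overlapped with another tissue.

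The next liver features shared 2 intervals. A_30_P01026532 on chr6:40693617-40720167 (F) ran from 2.20 to 4.17 in liver and not above 0.28 elsewhere. A_30_P01026000 and A_30_P01027987, both on chr8:91569369-91594119 (F), ran from 1.96 to 3.15 and from 1.47 to 2.79 in liver. Both were above background on 0 of 40 other arrays, and their values in lung and forestomach were at most 0.11 and 0.02.

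Larger liver excesses, chosen after their values were seen, came from features that were above background on some arrays of other tissues. A_30_P01030527, also on chr6:40693617-40720167 (F), ran from 5.54 to 6.95 in liver and was above background on 7 lung arrays and 1 forestomach array. Its values ran from -0.30 to 0.83 in lung and from -0.31 to 0.30 in forestomach, mostly from arrays where it was not above background. On that locus all 7 features on F and 1 of 5 on R were higher in liver than in both other tissues. A_30_P01021437 on chr17:32035750-32056000 (R) ran from 6.36 to 7.37 in liver, from 0.64 to 2.24 in lung and from -0.04 to 0.79 in forestomach. Its liver excess over lung was 41.9-fold, and in forestomach it was above background on 2 of 20 arrays.

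High liver levels were also seen at 3 more loci. A_30_P01026450 on chr10:87541696-87547421 (R) ran from 4.41 to 5.77 in liver and at most 0.69 in lung. A_30_P01022813 on chr10:39666719-39679959 (R) ran from 5.29 to 6.57 in liver, with lung up to 2.02 and forestomach up to 3.17, and at its locus 9 of 13 features were higher in liver. For A_30_P01021733 on chr13:28537223-28539860 (R) liver lay between 4.23 and 5.45, at least 14.6-fold above forestomach, while lung, above background on 5 of 20 arrays, was at most 0.45. No liver array overlapped with another tissue for any of these 3 features.

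**Figure D3:**
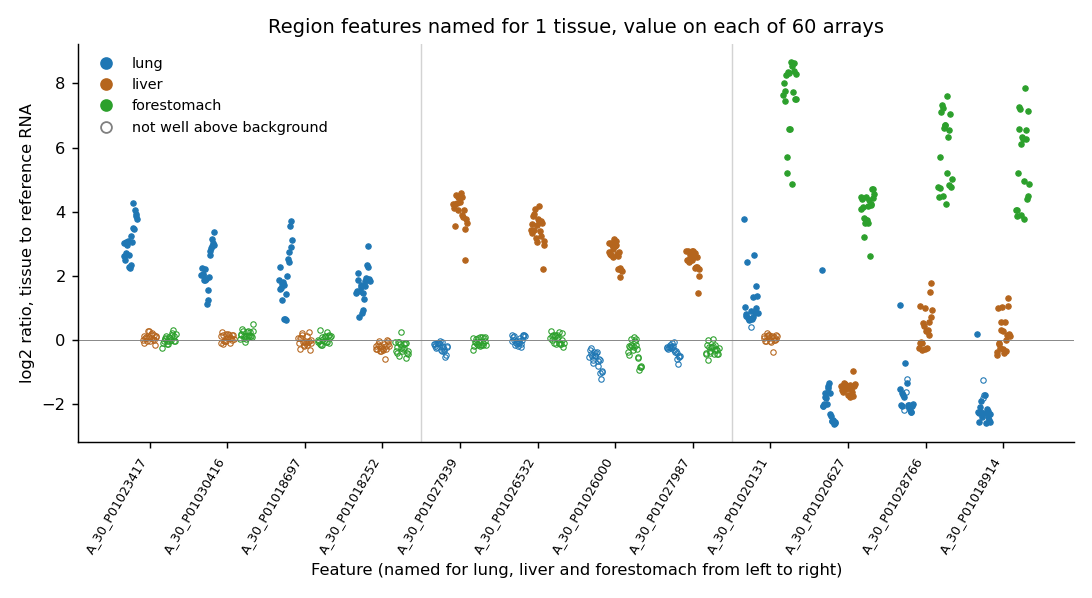
Log2 ratio to the reference RNA on each of the 60 arrays for the 12 region features named for lung, liver and forestomach, with tissues in separate colours and open circles for arrays where the feature was not well above background. The features named for lung and liver are open circles in both other tissues, while those named for forestomach are mostly filled in every tissue except A_30_P01020131 in liver, with 1 lung array (mouse 1) above the other lung arrays.

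Forestomach had no feature of the stricter reading, and its named features are those called higher than in both other tissues. A_30_P01020131 on chr17:56687541-56694631 (R) ran from 4.87 to 8.66 in forestomach (median 7.75), from 0.40 to 3.78 in lung and from -0.36 to 0.23 in liver, where it was above background on 0 arrays. Forestomach was 79.4-fold above lung (log2 difference 6.31) and at least 118-fold above liver. The highest lung value, 3.78, was that of mouse 1, and the next was 2.65. Without mouse 1 the forestomach excess over lung was 6.45.

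A_30_P01020627 on chr3:87757295-87774970 (F) ran from 2.61 to 4.72 in forestomach, from -2.63 to 2.18 in lung and from -1.77 to -0.95 in liver. In lung the array of mouse 1 stood at 2.18 and the next at -1.33, and the forestomach excess over lung was 5.92 with mouse 1 and 6.13 without. A_30_P01028766 and A_30_P01018914, both on chr9:78107225-78118850 (F), ran from 4.23 to 7.61 and from 3.77 to 7.84 in forestomach. Forestomach exceeded lung by 7.55 and 7.60 on the log2 scale (7.75 and 7.78 without mouse 1) and exceeded liver 44.2-fold and 40.5-fold. Both were again highest in lung on the array of mouse 1, at 1.08 and 0.19. The part of squamous, glandular stomach or muscle tissue in these levels was not tested.

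Other forestomach loci had smaller differences. A_30_P01025000 on chr4:155585650-155608700 (R) ran from 1.08 to 4.29 in forestomach, against -1.54 to 0.63 in lung and -1.25 to -0.52 in liver. A_30_P01021461 on chr2:119697845-119719245 (F) ran from 2.19 to 5.16, against -0.93 to 1.10 and -1.10 to 0.60. Both were separated from every lung and liver array. The highest lung values, 0.63 and 1.10, were those of mouse 1, and the next were -0.35 and -0.31. Forestomach exceeded lung by 3.83 and 4.08 with mouse 1 and by 3.86 and 4.13 without it, and A_30_P01025000 was above background on 7 of 20 lung arrays. Over the locus of A_30_P01020131, 9 of 21 features were higher in forestomach than in both other tissues, 7 of them on R.

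At the other end were features with nearly the same ratio everywhere. The 3 features with the smallest spread of the 12 group means among those above background on all 60 arrays were A_30_P01021357 on chr11:19778600-19815950 (R), A_30_P01032660 on chr5:112205091-112240992 (F) and A_30_P01030775 on chr3:100363012-100369462 (R). Over all arrays A_30_P01021357 stayed between -0.29 and 0.35, and the SD of its group means was 0.0654. A small spread of ratios was what chose these features, so it is given with no test.

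Intervals with features on both strands showed signal on both letters in many cases. A strand counted as detected when 1 or more of its features were. Of the 1067 intervals, lung detected both strands in 509, F alone in 204, R alone in 229 and neither in 125. Liver detected both in 405 and neither in 211, and forestomach both in 304 and neither in 288. In 559 intervals both strands were detected in 1 or more tissues, a number that became 921 when 1 array sufficed and 206 when all 20 were required.

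**Figure D4:**
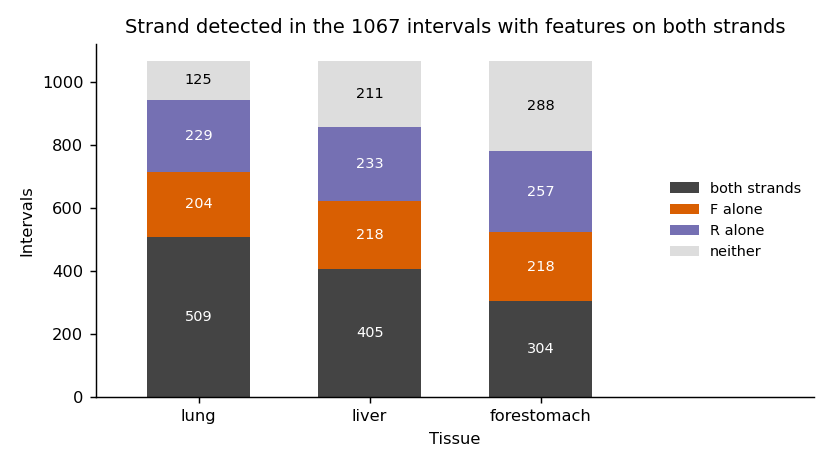
Number of intervals, of the 1067 with features on both strands, in which both strands, F alone, R alone or neither were detected, as 1 stacked bar per tissue. Both strands were detected in 509 intervals in lung, 405 in liver and 304 in forestomach, and neither strand in 125, 211 and 288.

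The strand found was the same in all 3 tissues in 524 of the 962 intervals with any strand detected, and in 438 intervals the state differed between tissues. In 277 intervals both strands were detected in all 3 tissues, in 114 F alone, in 133 R alone and in 105 neither. In 13 intervals, F alone was detected in 1 tissue and R alone in another. In most of the 13 no feature of either strand was called between tissues, and none had calls on both strands. Some rested on single features near the limit of 5 arrays. On chr8:131168275-131182125, for example, F reached 8 lung and 3 liver arrays, and R 0 lung and 5 liver arrays. The clearest of the 13 was chr3:30099759-30133959. On its R strand 5 of 5 features were above background on all 20 lung arrays and on 16 to 20 forestomach arrays, but on 0 to 2 liver arrays, whereas on F 1 of 5 features was above background on 17 lung, 18 liver and 3 forestomach arrays. The R feature A_30_P01022661 ran from 3.40 to 4.28 in lung, from -0.76 to -0.20 in liver and from 1.69 to 4.54 in forestomach. The F feature A_30_P01018556 ran from 0.15 to 0.81, from 0.31 to 0.95 and from -0.26 to 0.29 in the same tissues.

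Detection, but not the calls, was divided in a similar way on chr7:91558475-91733625. On F, 4 of 6 features were detected in lung and in forestomach and 0 of 6 in liver. However, 0 features on F were called between lung and liver, and 4 were called lower in lung than in forestomach. On R, A_30_P01021079 was above background on 20 of 20 liver arrays, 5 lung arrays and 4 forestomach arrays, and liver exceeded forestomach by 0.46, which is below 1.5-fold. On chr2:108456668-108532418 R was detected in lung, with up to 14 arrays, and F in liver, with up to 17.

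Where both strands of an interval carried calls between tissues, the direction was more often shared than opposed. Between lung and liver 118 intervals had calls on both strands, of which 77 ran the same way and 33 the opposite way. Between lung and forestomach 26 of 36 ran the same way and 9 the opposite way, and between liver and forestomach 58 of 73 and 13.

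The 4 strand pairs named here were ranked by arrays above background, with ties taken in genome order. All were above background on all 60 arrays on both letters. On chr1:182686731-182709331, F (A_30_P01017853) was higher in lung than in liver by 1.13 ± 0.10 (SE, adjusted p = 1.32e-15). R (A_30_P01029805) differed there by 0.44, below 1.5-fold, and by -0.12 when Cy5 signals were normalized as single channels. On chr5:34696192-34722842, R (A_30_P01027463) was higher in liver than in lung by 2.21-fold (adjusted p = 7.59e-19), while the difference on F (A_30_P01023896) was -0.12 (adjusted p = 0.543) and turned to 0.077 with the deposited ratios. As single-channel Cy5 signals, the means of F were 12.70 in lung and 13.51 in liver, so on that scale F was also higher in liver.

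On chr5:74487385-74497428 the letters moved together. F (A_30_P01026069) was 2.65-fold and R (A_30_P01025874) 3.06-fold higher in forestomach than in lung. Lung values lay between -0.84 and -0.13 on F and between -1.14 and -0.17 on R, and forestomach medians were 0.97 and 1.10. On chr5:96591892-96606467 they did not, as F (A_30_P01027478) was 2.04-fold higher in lung than in forestomach (adjusted p = 2.42e-22), while R (A_30_P01026843) was 1.61-fold higher in liver than in lung (adjusted p = 3.2e-08). With single-channel Cy5 values the latter difference, lung minus liver, was -0.54, below 1.5-fold, and the call was lost. For R the difference between lung and forestomach was -0.34.

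Few or no region features were called on the dose of BghiP in the main fits. With 5 arrays in a group, these fits cannot tell small changes from none. With each dose set against D0 in each tissue, limma called 0 region features and 0 features of any kind in all 9 comparisons (0% of all features tested). At an unadjusted p under 0.05, D1 differed for 131 region features in lung (2.19%, all features 2.22%), 213 in liver (4.80%, all features 3.03%) and 237 in forestomach (6.43%, all features 9.36%). For D2 the numbers were 115 (1.92%, all features 3.40%), 209 (4.71%, all features 4.15%) and 138 (3.74%, all features 3.66%). At D3 they were 161 of 5990 region features in lung (2.69%, all features 4.81%), 504 of 4433 in liver (11.4%, all features 12.1%) and 51 of 3685 in forestomach (1.38%, all features 1.5%). The response at D3 was not called as different between tissues for any region feature, with 202 at an unadjusted p under 0.05 for lung against liver (all features 2.95%), 108 for lung against forestomach (1.66%, all features 2.06%) and 242 for liver against forestomach (3.72%, all features 4.26%). With slide as a block, 4 falls were called at D3 in liver (falls among all features 0.0772%, calls in either direction 0.0927%).

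Liver ratios of region features shifted slightly downwards. The median log2 difference of D3 from D0 was -0.05 over the 4433 region features and -0.00 over all 25893 features tested, and 36.9% of region features were above 0, against 49.9% of all. The median stayed below 0 with normexp background correction (-0.04), the processed signals (-0.08) and the deposited ratios (-0.04). By array, the median of region features relative to that of all features lay from -0.0403 to -0.0150 in the 5 D3 livers and from -0.00596 to 0.0335 in the 5 D0 livers. Over features above background on all 20 arrays of a tissue the region median was -0.08 in liver (all features 0.00), -0.03 in forestomach (all features 0.01) and -0.00 in lung (all features 0.01). In lung and forestomach the medians over the features tested were 0.00 and 0.00 (all features 0.01 and 0.01), and with the processed signals 0.06 and 0.05 (all features 0.04 and 0.06). A median over features chosen as a class is a description and carries no test.

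A slope on dose over the 20 livers was called (adjusted p of 0.05 or less, no minimum size) for 10 region features, 0.226% of those tested and close to the 0.239% of all features. Of these 8 fell (all features 0.182%) and 2 rose (all features 0.0579%). The call depended on single mice: without mouse 2, 3, 5, 16, 17, 19 or 20 it was 0, and without mouse 1 it was 37. Shares over all features are not given for fits that leave out a mouse, here or below. Those counts therefore do not set region features apart from the rest. With slide as a block 126 region features were called (2.84%, all features 2.62%), of which 107 fell (all features 1.65%) and 19 rose (all features 0.969%), with 21 without mouse 2 and 192 without mouse 1.

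Among the 10 features called without the block, the 2 largest falls came from the same interval, chr19:5798135-5800557 (R). In the 5 D0 livers A_30_P01019829 was -0.75, -0.16, -0.51, -0.56 and -0.29 in mice 1 to 5, and in the D3 livers of mice 16 to 20 it was -1.22, -0.88, -0.83, -1.10 and -1.41. No D3 value overlapped with D0. Its slope was -0.026 per mg/kg-bw/day (adjusted p = 0.0391), a fall of 0.63 ± 0.14 (SE) on the log2 scale at D3 whose adjusted p was 0.113. A_30_P01021078 fell from a D0 mean of -0.64 ± 0.29 (SD, n = 5) to -1.24 ± 0.15 at D3, and its slope was -0.025 (adjusted p = 0.0392). All 3 features of the interval had slopes of the same sign. The D3 differences of the 2 called features were -0.15 and 0.02 in lung and -0.23 and -0.14 in forestomach.

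Other falls were smaller. A_30_P01031621 on chr18:36449530-36456800 (F) went from 0.79 ± 0.21 at D0 to 0.29 ± 0.10 at D3 (SD, n = 5), with a slope of -0.020 (adjusted p = 0.0337). Of the 6 features tested in its interval, 5 had slopes of this sign. A_30_P01031014 on chrX:47893703-47996700 (R) went from 0.29 ± 0.26 to -0.26 ± 0.20, with D0 values of -0.05 to 0.63 and D3 values of -0.57 to -0.02. Only 2 of the 4 features tested in that interval had slopes of this sign. A_30_P01026193 on chr5:34696192-34722842 (F) went from 0.61 ± 0.09 to 0.20 ± 0.08, without overlap. A_30_P01025034 on chr12:3406750-3425850 (R), A_30_P01028544 on chr14:67585234-67596823 (F) and A_30_P01025238 on chr2:73224880-73255276 (F) fell by 0.44, 0.42 and 0.41 at D3 on the log2 scale. In 8 of the 10 features D0 and D3 values did not overlap. The slope over these same arrays chose the features, so this separation is a description and carries no test.

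Of the 2 rises, A_30_P01022383 on chr8:40100925-40196350 (F) went from -2.44 ± 0.12 at D0 to -1.99 ± 0.21 at D3 (slope 0.020, adjusted p = 0.0401). A_30_P01031371 on chr6:112552041-112560067 (F) went from -0.61 ± 0.16 to -0.19 ± 0.07 (slope 0.017, adjusted p = 0.0401). All 6 features of the latter interval that were tested had the same sign, although 1 passed. The D3 differences of the 2 rising features were 0.15 and -0.01 in lung and 0.03 and 0.01 in forestomach.

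**Figure D5:**
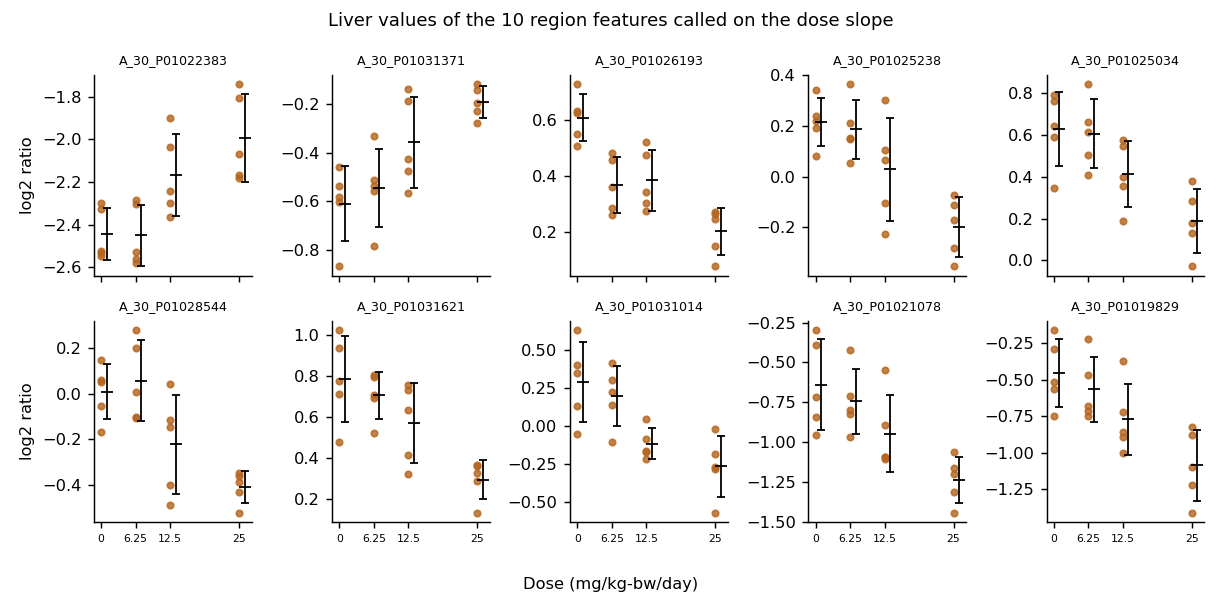
Liver log2 ratio of the 10 region features called on the slope, against the dose of BghiP (mg/kg-bw/day), with 1 point per mouse and the mean ± SD of each group of 5 beside the points. The 2 features at upper left rise from D0 to D3 and the other 8 fall, each by less than 1 log2 unit.

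Among the 4 features called at D3 in liver with slide as a block, the largest falls were on chr17:39980973-39981876 (R) and chr8:27129927-27137444 (R). A_30_P01028562 of the first interval had D0 values from -0.96 to 0.10 and D3 values from -1.41 to -1.09, a fall of 0.74 ± 0.15 (SE, adjusted p = 0.0444). A_30_P01018620 of the same interval fell by 0.71 (adjusted p = 0.0392), and A_30_P01030038 of the second went from 1.62 ± 0.28 (SD, n = 5) to 0.96 ± 0.22, a fall of 0.72 with the block (adjusted p = 0.0402). Without the block these adjusted p-values were 0.143, 0.225 and 0.141. The D0 mouse 2 was the highest on both features of the first interval, at 0.10 and 0.08, and without mouse 2, 3, 5, 8, 10, 12, 14, 16, 17, 18, 19 or 20 the count with the block was 0, while without mouse 1 it was 32.

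In lung the slope called 0 region features (limma, 158 at an unadjusted p under 0.05, all features 4.79%) and, with slide as a block, 5 (0.0835%, all features 0.306%), of which 4 rose (all features 0.216%) and 1 fell (all features 0.0903%). Of these 5, A_30_P01020960 and A_30_P01022528 lie on the same interval, chr17:29183003-29217681 (R). A_30_P01022528 went from -0.20 ± 0.11 at D0 to 0.28 ± 0.05 at D3 (SD, n = 5), without overlap, and its slope was 0.019 (adjusted p = 0.164 without and 0.0259 with the block). A_30_P01020960 went from -0.55 ± 0.26 to 0.01 ± 0.15. The other slopes were on chr16:46384974-46391331 (A_30_P01021563), chr14:21437920-21464655 (A_30_P01022431) and chr5:35975265-35982561 (A_30_P01022310, the fall). Without mouse 16, 17 or 19 the count was 0, and without mouse 20 it was 20.

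Forestomach slopes called 0 region features (limma, 75 at an unadjusted p under 0.05, all features 2.36%). The 2 with the smallest p at D3 were A_30_P01020964 on chr5:119945358-119962612 (F), with a difference of -0.35 (unadjusted p = 0.00403, adjusted p = 1), and A_30_P01026480 on chr12:88216447-88224965 (F), with -0.33. When all 60 arrays shared 1 estimate of the spread, 65 region features were called at D1 in forestomach (56 rises and 9 falls, 1.76% against 3.29% of all features). By size alone, 3.66% of forestomach region features differed by 1.5-fold or more at D1 (all features 7.47%) and 0.271% at D3 (all features 1.81%).

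Lung of mouse 1 carried region features that no other lung array showed at that level. On this array 31 region features (0.192%), in 15 stranded intervals, lay 1 or more log2 units above each of the other 19 lung arrays, and 497 features of other names (1.26%) did so. A_30_P01033256 on chr8:27925064-27934895 (R) was at 3.55, with the next lung array at -0.18. On chr3:137736327-137752677 (F), A_30_P01032042 was at 3.16 against -0.48, and A_30_P01020116 at 3.07 against -0.23.

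Forestomach of the same mouse was high for some of these features and not for others. A_30_P01020627 was at 2.18 in lung and 4.08 in forestomach of mouse 1, whereas A_30_P01032042 was at -0.87 in forestomach of the same mouse and above background on 0 of 20 forestomach arrays. On chr10:69669025-69686275 (F), 5 features stood at 2.02 to 2.45 in lung of mouse 1, with every other lung array at 0.53 or less, and below 0 in its forestomach. Over all mice these 5 were above background on 2 to 10 of 20 forestomach arrays. The skeletal muscle and squamous markers of this array were high as well, at the values given above, and their part in these features was not tested.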

How the data were processed

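RNA from 3 tissues of 20 mice was measured on 60 dual-colour arrays on 8 slides, with tissue in Cy5, reference RNA in Cy3 and no dye swap. Deposited scanner files hold spot intensity values and quality flags from Feature Extraction 10.7.3.1 (build mm9 per the file headers). The authors' log2 ratios, deposited in the series matrix, came from LOWESS on median intensities without background subtraction.

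Here, median Cy5 and Cy3 signals gave log2 ratios, to which limma (version 3.58.1, in R 4.3.3, with the package data.table, version 1.17.8) applied a loess fit per array. Over arrays they correlated with the deposited log2 ratios at r from 0.992 to 0.999. Control spots (3671 of 62976) and values flagged as outliers (0.0361%) were left out. Repeated spots of a probe were averaged, and 0 values were saturated. Features tested were well above background in Cy5 on 5 or more of 20 arrays of the tissue, or of any tissue for tissue comparisons. Precision is limited by having 5 arrays in a group.

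Tissues were compared in 1 model of 12 groups and doses in a model per tissue (lmFit and eBayes, two-sided, Benjamini-Hochberg over all features tested). The study used MAANOVA with shuffled residuals, for which limma stands in. Fold bounds used Cy5 values after loess and Aquantile normalization. Scripts were tested on simulated data.

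Named features were, per tissue, up to 4 above background on all 20 arrays and on none of the other 40 by the smaller of both differences (filled with those higher than in both other tissues), the 3 with the least spread, the 4 strand pairs on the most arrays, and called or lowest-p features on dose. Members, lists and tests were chosen with earlier results of these data known. Same-numbered samples come from the same mouse per the labels. The deviations of lung and forestomach of a mouse correlated at a median of 0.21 (-0.00 to 0.43), those of lung and liver at 0.05 and those of liver and forestomach at -0.00. Comparison with neighbouring genes was not run. Alternatives were normexp (offset 50), processed signals, deposited ratios, single channels, other filters and flags, a variance trend, slide or mouse blocks, 1 model for all arrays, and leaving out each mouse.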

Additional observations from a re-analysis of the deposited data

Results flagged for a closer look

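In groups of 5 arrays, the highest or lowest array was set against the others for the share of region features above background and for the features named on dose, with 96 groups tested and 2 flagged, where chance alone flags about 1 group in 20. A_30_P01028562 on chr17:39980973-39981876 (R) had a D2 liver array, mouse 11, at -0.78, apart from the other D2 livers at -1.01 to -1.09. A_30_P01030038 on chr8:27129927-27137444 (R) had a D1 liver array, mouse 6, at 2.08, with the other D1 livers at 1.35 to 1.497. Both features were among those called at D3 in liver with slide as a block, and neither array belongs to D0 or D3.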

How the results depend on the processing

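With mouse as a replicate block 1850, 1222 and 1296 region features were called between lung and liver, lung and forestomach, and liver and forestomach, and 0 for the differences in response, so these counts moved by at most 1, and no call of a named feature changed. Processed signals gave 4383, 3152 and 3776 tissue calls and 18 slopes in liver. Liver slopes numbered 29 with the filter on all 20 arrays, 25 with a variance trend and robust estimation and 126 with slide as a block, which also gave 4 calls at D3 in liver and 5 slopes in lung. All 60 arrays in 1 model gave 1 call at D3 in liver (0.0226%, all features 0.0193%) and 65 at D1 in forestomach (1.76%, all features 3.29%). Detection on all 20 arrays left 2011, 2192 and 641 features in lung, liver and forestomach, on 1 array 7358 in liver and 7548 in forestomach, and the positive and significant flag 10875, 10282 and 8945. Strand pairs were 921 with 1 array and 206 with 20. Among the 4 strand pairs, single-channel Cy5 values turned the sign for A_30_P01029805 (lung minus liver -0.12, liver minus forestomach 0.17), A_30_P01023896 (liver minus forestomach 0.41) and A_30_P01025874 (liver minus forestomach 0.27), and the deposited ratios for A_30_P01023896 (lung minus liver 0.077). Leaving out each mouse gave 1828 to 1872, 1176 to 1262 and 1278 to 1328 tissue calls, 5706 to 5990, 4319 to 4429 and 3354 to 3683 detected features, 0 to 37 slopes in liver, 0 to 1 calls at D3 in liver and 0 for every other dose comparison. With slide as a block as well, a choice made after seeing the data, it gave 0 to 32 calls at D3 in liver, 21 to 192 slopes in liver and 0 to 20 in lung. The causes were not tested, and counts given here without a share over all features do not set region features apart. Over the 71 named features and contrasts, 2012 alternatives left 1868 with the same call, 129 no longer called, 10 newly called and 5 with the other sign. The features ranked for a tissue kept direction and call in all 696 alternatives run on them. Nearest annotated features were not compared, and their alternative distances not run. Signal over background limits detection, which moved with the slide.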

Other observations

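A further 13 features have a name that begins with chr but carry no strand letter, and entered no count above. Of these, 5 on chr17:12941161-12944859 were above background on 20 lung arrays each, on 19 or 20 liver arrays and on 12 to 19 forestomach arrays. The other 8, on chr6:52032838-52033444 and chr3:34856791-34869544, were above background on at most 3 arrays of any tissue.

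Single arrays other than lung of mouse 1 also held region features 1 or more log2 units above all other arrays of their tissue. Liver of mouse 9 (D1) had 10 (17 of other names), of which A_30_P01031270 on chr2:104657075-104658840 (F) was at 1.28 with the next liver array at -0.60. Forestomach of mouse 13 (D2) had 12 (17 of other names), that of mouse 8 (D1) 10 (27) and that of mouse 12 (D2) 10 (10). In contrast, lung of mouse 20 (D3) had 0 region features and 144 features of other names above the other lung arrays in this way, with liver markers at a mean log2 ratio of 4.28 against 1.25 on the next lung array. Forestomach of mouse 15 (D2) had 0 and 154.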
